A study of Mus musculus with 15 samples.

Results

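Alveolar macrophages of wild-type C57BL/6 mice were compared between 4 and 12 weeks of age, the interval in which a weaned mouse becomes an adult. The comparison rests on 6 of the 15 libraries of the series, chosen by their labels alone: 3 libraries of wild-type cells at 4 weeks and 3 at 12 weeks, all from the CD11b-low sort gate. The cells were taken from naive mice by bronchoalveolar lavage, which rinses cells from the air spaces. They were sorted as CD45+ Ly6G- SiglecF+ CD11c+ with low CD11b. Each library came from the lavage cells of several mice of 1 group, pooled to reach enough cells, so a library is a pool and not an animal. The labels describe the 3 replicates of a group as independent. The other 9 libraries came from Cybb knockout mice on the same background (CD11b-low cells at 4 and 12 weeks and CD11b-high cells at 12 weeks). They enter the fit, and the CD11b-low knockout cells serve as the comparison at the end.

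Alveolar macrophages live on the inner surface of the air sacs, where they clear surfactant lipid, inhaled particles and dying cells. They arise from fetal monocytes that settle in the lung around birth, depend on granulocyte-macrophage colony-stimulating factor (GM-CSF) and on the transcription factor PPAR-gamma, and then renew themselves locally by division. In steady state they carry less major histocompatibility complex (MHC) class II, the molecules that show peptides to CD4 T cells, than most tissue macrophages and dendritic cells do.

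The 6 libraries held between 23445956 and 36347204 counts assigned to genes and between 15889 and 17296 genes with a count. Library 1 of the 12-week group stood apart from the other libraries: its log-scale correlation with the other 5 lay between 0.918 and 0.937, while all other pairs lay between 0.945 and 0.982. The first principal component held 43.7% of the variance and placed that library at 92.2, the other 12-week libraries at 9.11 and 22.9, and the 4-week libraries between -45.8 and -38.2. The spread between replicates, given as the common biological coefficient of variation, was 0.246 at 4 weeks and 0.437 at 12 weeks, and 0.217 at 12 weeks without library 1. Library 2 of the 4-week group held more red cell transcript than the others (values below). The pools also differed in the sexes they held: Xist was at 13.9, 0.103 and 33.0 CPM (counts scaled to a common library total) in the 4-week libraries and at 0, 0.0636 and 0.0913 CPM in the 12-week libraries, and the part of this difference in the results was not tested. The sort markers Ptprc, Itgax, Siglecf and Itgam were all expressed, and none of the 4 passed the test between the ages. Siglecf stood at 286, 262 and 317 CPM at 4 weeks and 213, 308 and 308 CPM at 12 weeks, and Itgam, which encodes CD11b, stood at 0.925, 1.44 and 2.09 CPM at 4 weeks and 0.805, 1.66 and 2.24 CPM at 12 weeks. Ly6g, the marker sorted against, had no count in any of the 6 libraries.

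Across all 13284 genes tested, 2282 (17.2%) differed between the ages at an adjusted p of 0.05 (edgeR's quasi-likelihood test with Benjamini-Hochberg adjustment). Of these, 1167 rose from 4 to 12 weeks (8.79% of the genes tested) and 1115 fell (8.39%). The change was over 2-fold for 754 of the genes that rose and for 781 of those that fell. It was over 4-fold for 111 and 101. The 3 libraries of each age did not overlap for 4553 genes, or 34.3% of those tested, and 2237 of the 2282 called genes were among them. Non-overlap was also required of the genes named as the largest or the most abundant changes, so it is no result for them. The median log2 fold change over all genes was -0.03. With upper quartile scaling in place of TMM that median was 0.14, and 1574 genes rose and 762 fell. With 1 library left out, the number of genes past the threshold was 1193, 1422 and 1069 without 4-week library 1, 2 and 3, and 2528, 1502 and 2355 without 12-week library 1, 2 and 3. In bulk libraries, fewer cells of a type and less RNA per cell cannot be told apart, which holds for every result below. All fold changes below are 12 weeks against 4 weeks in wild-type cells, and all levels are CPM scaled by TMM unless stated otherwise. Summed levels of a gene list are CPM of the library total, without TMM scaling. The scaled level of a single member can therefore exceed the sum of its list. Percentages beside the counts of a gene list are shares of its measured genes. They stand against the 8.79% of all genes that rose and the 8.39% that fell.

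Several of the largest rises belonged to MHC class II. Of the 17 measured genes of class II presentation, 8 rose (47.1%, against 8.79% of all genes), none fell and 9 did not pass the test, and the median log2 fold change was 1.18 against -0.03 over all genes. The count was 5 without 4-week library 1 and 9 without 12-week library 1. Class II molecules are pairs of an alpha and a beta chain, loaded in endosomes with the help of the invariant chain (Cd74) and the H2-DM exchange factor, and their genes share a promoter element, the X and Y boxes, that is read by a complex for which CIITA is the limiting co-activator. The proximal promoters that hold an X-type sequence followed by a Y box are printed next to show how the pair is laid out in the 5 genes of the list that hold it. They are RefSeq sequences on GRCm38.p6, read 5′ to 3′ on the gene's strand, and capitals mark the X-type match (AACNNTGA or AACNNNTGA) and the Y box ATTGG, with 10 bases on either side.
H2-Aa, chr17:34287857-34287912, minus strand: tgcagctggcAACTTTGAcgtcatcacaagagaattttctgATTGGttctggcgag
H2-Eb1, chr17:34305768-34305822, plus strand: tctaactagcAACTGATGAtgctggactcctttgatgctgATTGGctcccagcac
H2-DMb1, chr17:34153089-34153144, plus strand: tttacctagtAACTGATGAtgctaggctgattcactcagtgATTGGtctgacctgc
H2-DMb2, chr17:34145118-34145173, plus strand: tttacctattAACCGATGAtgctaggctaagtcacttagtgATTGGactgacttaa
H2-Ob, chr17:34238810-34238862, plus strand: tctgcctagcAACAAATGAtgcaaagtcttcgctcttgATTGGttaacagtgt
The match required the Y box 15 to 30 bases after the X-type sequence, within the 250 bases before the start. On the gene's strand it was present in 73 of 32851 promoters (0.222%), and on either strand in 125 (0.381%). Among the class II list, 13 genes had a promoter entry and 5 held the pair, of which H2-DMb2 and H2-Ob did not pass the test between the ages. H2-DMa and Ifi30, which passed, and H2-Oa had entries without the pair. The motif letters were chosen after these promoters had been read, so the counts describe the sequences and test nothing. H2-Ab1, Cd74, Ciita, Cd86 and Cd40 had no entry.

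H2-Aa, the alpha chain of I-A (ENSMUSG00000036594, chr17:34282744-34287823, minus strand, GRCm38), stood at 52.7, 131 and 23.8 CPM at 4 weeks and 2183, 1497 and 1735 CPM at 12 weeks. Every 12-week library was more than 10 times the highest 4-week library, the largest of the 15 rises taken by the naming rule (log2 fold change 4.70, SE 0.55, adjusted p = 0.000458). Cd74, the invariant chain, stood at 427, 1003 and 216 CPM at 4 weeks and 7978, 9335 and 10902 CPM at 12 weeks (log2 fold change 4.10, SE 0.51, adjusted p = 0.000801). H2-Eb1, the beta chain of I-E, stood at 15.8, 34 and 5.41 CPM at 4 weeks and 174, 365 and 464 CPM at 12 weeks (log2 fold change 4.18, SE 0.62, adjusted p = 0.0021). For both genes the ages were far apart, and in both the 4-week libraries kept the order seen for H2-Aa, with library 2 highest and library 3 lowest. H2-Ab1, the beta chain of I-A, stood at 32.9, 82.7 and 8.62 CPM at 4 weeks and 261, 666 and 948 CPM at 12 weeks (log2 fold change 3.92, SE 1.03, adjusted p = 0.0201). Its libraries did not overlap, which the naming rule required, but its call ended without 4-week library 1 or 3 or 12-week library 3 (adjusted p = 0.0508 to 0.0811). The exchange factor genes rose as well. H2-DMb1 stood at 95.9, 98.4 and 62.9 CPM at 4 weeks and 217, 292 and 298 CPM at 12 weeks (log2 fold change 1.65, SE 0.22, adjusted p = 0.00108), and H2-DMa stood at 767, 799 and 1019.8 CPM at 4 weeks and 2262, 1802 and 1794 CPM at 12 weeks (log2 fold change 1.18, SE 0.22, adjusted p = 0.00443). The near-identical copy H2-DMb2 stood at 22, 29.4 and 29.8 CPM at 4 weeks and 29.8, 52.4 and 52.7 CPM at 12 weeks and did not pass (log2 fold change 0.73, adjusted p = 0.0662), and reads shared between the 2 copies could have been split or dropped in counting.

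Ciita, the co-activator, was rare at both ages, at 1.16, 1.99 and 0.363 CPM at 4 weeks and 5.76, 2.13 and 6.66 CPM at 12 weeks (log2 fold change 2.05, SE 0.64, adjusted p = 0.0355). Its 12-week libraries were all above its 4-week libraries by a narrow margin, and the call ended without 4-week library 1 or 3 or 12-week library 1 or 3 (adjusted p = 0.0811 to 0.134). Ifi30, a lysosomal thiol reductase that unfolds antigens, stood at 229.9, 213 and 304 CPM at 4 weeks and 753, 362 and 334 CPM at 12 weeks (log2 fold change 0.95, SE 0.30, adjusted p = 0.0389), and this call ended without 4-week library 1, 2 or 3 or 12-week library 1 (adjusted p = 0.059 to 0.171). The members that did not pass included H2-Ob (adjusted p = 0.0951) and H2-Oa (adjusted p = 0.917), the 2 chains of the H2-DM inhibitor. They also included the co-stimulators Cd86 (log2 fold change 0.55, adjusted p = 0.0991) and Cd80 (log2 fold change -0.03, adjusted p = 0.964). Ctss, the protease that trims the invariant chain, had a log2 fold change of 0.58 and an adjusted p of 0.0928. Dendritic cells and B cells carry class II at high levels, so their markers are given here. Of the 17 measured dendritic cell markers 3 rose (17.6%) and none fell, and their summed level ran from 600.3 to 677 CPM at 4 weeks and from 443 to 767 CPM at 12 weeks. The 3 were Ccl17, a chemokine, at 2.64, 2.06 and 1.48 CPM at 4 weeks and 15.4, 9.90 and 3.79 CPM at 12 weeks (log2 fold change 2.23, SE 0.59, adjusted p = 0.017), Cd209a, a lectin whose call rests on few counts, at 0, 0.0343 and 0.0302 CPM at 4 weeks and 1.05, 0.668 and 0.137 CPM at 12 weeks (adjusted p = 0.0264), and Bst2, which is also induced by interferon, at 33.3, 32.4 and 31.7 CPM at 4 weeks and 51.1, 60.5 and 48 CPM at 12 weeks (log2 fold change 0.71, SE 0.22, adjusted p = 0.0327). Their calls ended without 4-week library 2 or 3 or 12-week library 1 (adjusted p = 0.0562 to 0.0861) for Ccl17, without 4-week library 1, 2 or 3 or 12-week library 1 or 2 (adjusted p = 0.0672 to 0.0999) for Cd209a and without 4-week library 1, 2 or 3 or 12-week library 2 (adjusted p = 0.0861 to 0.107) for Bst2. Zbtb46, Xcr1, Clec9a and Flt3, which define dendritic cells, had at most 2.97 CPM in any of the 6 libraries. Of the 8 measured B cell markers none passed, and their sum lay between 2.52 and 10.6 CPM in all 6 libraries.

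**Figure D1:**
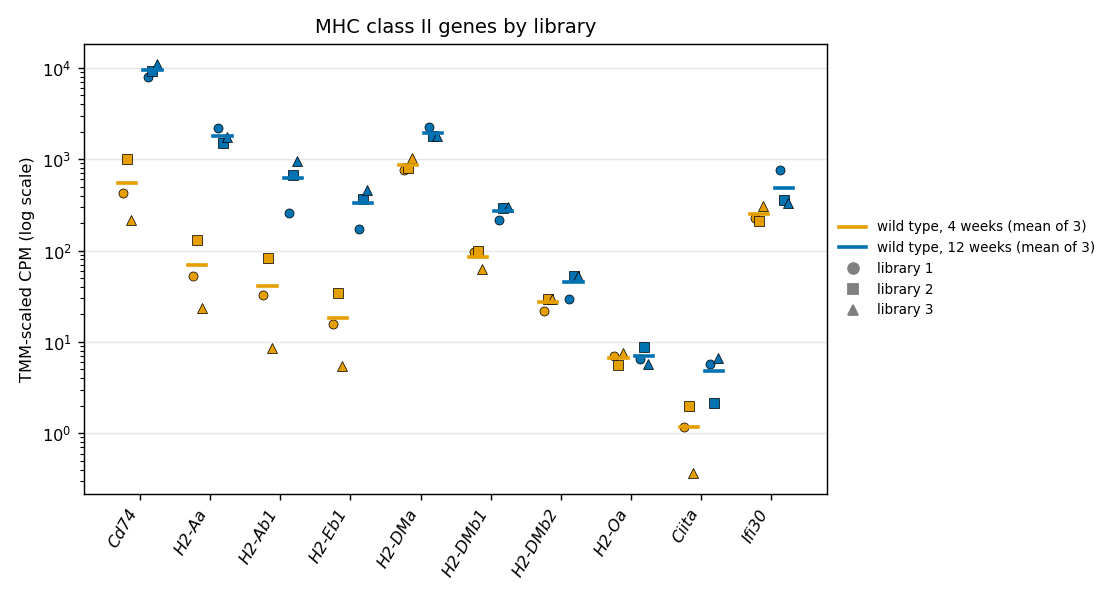
Levels of class II genes in each of the 6 wild-type libraries (log axis, TMM-scaled CPM; each point is a library, bars are the means of 3). Cd74, H2-Aa, H2-Ab1 and H2-Eb1 do not overlap between the ages and have the widest gaps between means, H2-DMa and H2-DMb1 are separated by less, and H2-Oa overlaps.

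MHC class I molecules show peptides to CD8 T cells. Of 22 measured genes of class I presentation, 4 rose, 1 fell and 17 did not pass the test (18.2% rose and 4.55% fell, against 8.79% and 8.39% of all genes), with a median of -0.07. Psmb9, a subunit of the immunoproteasome that cuts peptides for class I, stood at 91.3, 82.8 and 78.6 CPM at 4 weeks and 165, 196 and 154 CPM at 12 weeks (log2 fold change 1.03, SE 0.21, adjusted p = 0.00543). Psmb10, a partner subunit, rose by 0.82 on the log2 scale (adjusted p = 0.0113), a call that ended without 4-week library 1 (adjusted p = 0.0511). Erap1, the peptidase that trims peptides in the endoplasmic reticulum, stood at 52, 52.1 and 75.4 CPM at 4 weeks and 17.9, 24.3 and 22.5 CPM at 12 weeks and fell (log2 fold change -1.47, SE 0.25, adjusted p = 0.0032). H2-M3 and H2-T23, which share sequence with other class I genes, rose by 0.92 and 0.82 on the log2 scale. The call of H2-M3 ended without 4-week library 1, 2 or 3 or 12-week library 2 or 3 (adjusted p = 0.0668 to 0.107) and that of H2-T23 without 4-week library 1, 2 or 3 or 12-week library 2 or 3 (adjusted p = 0.0762 to 0.179). The number that rose was 1 without 4-week library 1.

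Outside class II, 11 more genes made up the 15 largest rises, which spanned 5.35-fold to 26.1-fold. Clec1b, known as CLEC-2, the receptor for podoplanin on platelets and myeloid cells (ENSMUSG00000030159, chr6:129397297-129409335), stood at 9.60, 21.1 and 7.56 CPM at 4 weeks and 131, 126 and 113 CPM at 12 weeks (log2 fold change 3.28, SE 0.39, adjusted p = 0.000458). The 12-week libraries lay within a narrow band, at least 5 times above every 4-week library. Slc1a3, a glutamate transporter, stood at 1.74, 1.65 and 0.454 CPM at 4 weeks and 5.96, 11.4 and 14.5 CPM at 12 weeks (log2 fold change 3.05, SE 0.47, adjusted p = 0.00211). Slpi, a secreted inhibitor of neutrophil proteases, stood at 402, 422 and 393 CPM at 4 weeks and 3238, 1871 and 1645 CPM at 12 weeks (log2 fold change 2.47, SE 0.39, adjusted p = 0.00233). Apoc1, an apolipoprotein, stood at 12.9, 15.7 and 10.4 CPM at 4 weeks and 162, 74.2 and 58.7 CPM at 12 weeks (log2 fold change 2.92, SE 0.43, adjusted p = 0.00203). The naming rule required that the ages did not overlap in these 4 genes. For Slpi and Apoc1 the 12-week library 1 was the highest.

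For another group of the largest rises that library was several times above its 2 replicates. Gprin1 stood at 17, 12.7 and 13.6 CPM at 4 weeks and 382, 72.5 and 70.9 CPM at 12 weeks (log2 fold change 3.60, adjusted p = 0.0048). Cadps2, which primes vesicles for release, stood at 20.9, 17.4 and 16.8 CPM at 4 weeks and 427, 84.5 and 87.2 CPM at 12 weeks (log2 fold change 3.44, adjusted p = 0.00445). Lars2, the mitochondrial leucyl-tRNA synthetase, stood at 725, 762 and 726 CPM at 4 weeks and 8055, 1868 and 1917 CPM at 12 weeks, and the microRNA locus Mir6236 stood at 441, 438 and 348 CPM at 4 weeks and 5815, 1699.6 and 1643 CPM at 12 weeks. Protein-coding genes took 96.8% of the counts in 12-week library 1, against 98.4% to 98.6% in the other wild-type libraries. Lars2 and Mir6236 were both highest in that library. Without it, the log2 fold change was 2.31 for Gprin1 in place of 3.60, 2.23 for Cadps2 in place of 3.44, 1.36 for Lars2 in place of 2.42 and 2.03 for Mir6236 in place of 2.90. Likewise it was 3.00 in place of 3.73 for Hr, a nuclear receptor corepressor. For Apoc1 it was 2.36, for Epcam, an epithelial adhesion molecule, 2.10 in place of 2.79, and for Vsig8 1.85 in place of 2.66. All of these genes still passed without that library, and 14 of the 15 largest rises passed with each of the 6 libraries left out in turn, H2-Ab1 being the exception.

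Among the genes with the highest counts that rose was Lyz2, the lysozyme of macrophages (ENSMUSG00000069516, chr10:117277331-117282321), at 30598, 34604 and 28401 CPM at 4 weeks and 75973, 101057 and 80104 CPM at 12 weeks (log2 fold change 1.46, SE 0.27, adjusted p = 0.00405). The highest 4-week library was less than 0.5 times the lowest 12-week library. Tyrobp, the signalling adaptor DAP12, stood at 2269, 2192 and 1858 CPM at 4 weeks and 9347, 5870.5 and 4307 CPM at 12 weeks (log2 fold change 1.63, SE 0.34, adjusted p = 0.00561). Cyba, which encodes p22phox, the partner of the NADPH oxidase catalytic subunit, stood at 1974, 1938 and 1409 CPM at 4 weeks and 5149, 4877 and 3657 CPM at 12 weeks (log2 fold change 1.36, SE 0.28, adjusted p = 0.00535). Cybb, the catalytic subunit itself and the gene targeted in the knockout, moved the other way, at 1531, 1534 and 2319 CPM at 4 weeks and 899, 957 and 1221 CPM at 12 weeks (log2 fold change -0.81, SE 0.24, adjusted p = 0.0264). Its libraries did not overlap, and its call ended without 4-week library 3 (adjusted p = 0.153) and 12-week library 2 (adjusted p = 0.083). No other of the 9 measured oxidase subunits passed, so 1 rose and 1 fell (11.1% each). With the transcript length trend described below removed, Cybb did not pass (log2 fold change -0.46, adjusted p = 0.155). Cyba still passed on that scale (log2 fold change 0.85, adjusted p = 0.0287). Tmsb4x, which binds actin monomers, rose by 1.05 on the log2 scale (adjusted p = 0.00897), while Actb itself fell by 0.96 (adjusted p = 0.0381), a call that ended without 4-week library 1, 2 or 3 or 12-week library 1 or 2 (adjusted p = 0.0524 to 0.152). Cd9, a tetraspanin, rose by 0.76 (adjusted p = 0.0409), which also ended without 4-week library 1, 2 or 3 or 12-week library 2 or 3 (adjusted p = 0.0808 to 0.156).

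Among the genes with high counts that fell was Fth1, the ferritin heavy chain that stores iron (ENSMUSG00000024661, chr19:9980598-9985098). It stood at 16514, 13985 and 8573 CPM at 4 weeks and 3158, 982 and 1072 CPM at 12 weeks (log2 fold change -2.91, SE 0.68, adjusted p = 0.0102). The ages did not overlap, which the naming rule required. The 12-week library 1 was about 3 times its replicates, and without it the log2 fold change was -3.66, while the call ended without 12-week library 2 (adjusted p = 0.0503). Ftl1, the ferritin light chain, moved in the opposite direction, at 1327, 1286 and 1028 CPM at 4 weeks and 3092, 2397 and 1933 CPM at 12 weeks (log2 fold change 1.03, SE 0.26, adjusted p = 0.0127), a call that ended without 4-week library 3 (adjusted p = 0.0693). Both ferritin genes have many processed copies in the genome, and how reads shared with copies were counted is not given in the sources used here. Of the 24 measured genes of iron and haem handling, 3 rose (12.5%), 6 fell (25%) and 15 did not pass, with a median of 0.02. Ncoa4, the carrier that takes ferritin to lysosomes, fell by 1.48 on the log2 scale (adjusted p = 0.0138, but 0.0535 without 4-week library 3). Aco1, an iron-sensing RNA-binding protein, fell by 1.38 (adjusted p = 0.0144, but 0.0665 without 4-week library 3 and 0.0538 without 12-week library 2). Blvrb, biliverdin reductase B, rose by 1.19 (adjusted p = 0.00445). The number of this list that fell was 1 without 12-week library 2, and 2 with the transcript length trend described below removed.

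Several of the largest falls were genes of regulatory proteins whose 12-week libraries were all far below the 4-week range. Bhlhe41, a repressor that with Bhlhe40 supports self-renewal of alveolar macrophages (ENSMUSG00000030256, chr6:145858243-145865558), stood at 313, 466 and 553 CPM at 4 weeks and 40.7, 64.4 and 132 CPM at 12 weeks (log2 fold change -2.49, SE 0.48, adjusted p = 0.00458). Notch2, a receptor of the Notch family, stood at 219, 233 and 314 CPM at 4 weeks and 36.3, 35 and 65.8 CPM at 12 weeks (log2 fold change -2.48, SE 0.42, adjusted p = 0.00337). Wtap, a regulatory subunit of the complex that writes N6-methyladenosine on RNA, stood at 131, 135 and 167 CPM at 4 weeks and 18.1, 19.4 and 33.5 CPM at 12 weeks (log2 fold change -2.61, SE 0.56, adjusted p = 0.00712). In all 3 genes the highest 12-week library was library 3, and the naming rule required the ages to be separate. Slc39a1, a zinc importer, fell by 2.72 on the log2 scale (adjusted p = 0.00557) and Emc1, a membrane protein insertase subunit, by 2.73 (adjusted p = 0.00281). Tmem170b fell by 2.58 (adjusted p = 0.00368), Bmp2k by 2.42 (adjusted p = 0.00491) and Il1rl2, the IL-36 receptor, by 2.55 (adjusted p = 0.00809). Penk, the enkephalin precursor, fell by 2.68 (adjusted p = 0.0182), and its call ended without 4-week library 3 or 12-week library 1 or 3 (adjusted p = 0.0597 to 0.0889). The cytoskeletal genes Lcp1, an actin bundler at 3463, 3481 and 4000.3 CPM at 4 weeks and 836, 1410.4 and 1909 CPM at 12 weeks, and Tubb5, a tubulin at 1982, 1982 and 2325 CPM at 4 weeks and 627, 907 and 1249 CPM at 12 weeks, fell by 1.40 and 1.18 (adjusted p = 0.00869 and 0.0102). Iqgap1, an actin scaffold, fell by 1.03 (adjusted p = 0.013, but 0.0721 without 4-week library 3). Of the remaining large falls, Car2, Tent5c, Rsad2 and Alas2 were highest in the 4-week library rich in red cell transcript and are given with it below.

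Alveolar macrophage identity genes were high at both ages and moved in both directions. Their 35 genes together took 78948 to 83374 CPM of the library total at 4 weeks and 79833 to 99788 CPM at 12 weeks. In this list 7 rose (20%), 4 fell (11.4%) and 24 did not pass the test, and the median was 0.11. Ear1, an eosinophil-associated ribonuclease that these macrophages express, stood at 397, 439.7 and 417 CPM at 4 weeks and 1473, 968 and 726 CPM at 12 weeks (log2 fold change 1.34, adjusted p = 0.00401). Ear2 stood at 1724, 1853 and 1780.2 CPM at 4 weeks and 5211, 3839 and 3140.0 CPM at 12 weeks (log2 fold change 1.19, adjusted p = 0.00478). The 2 genes are near-identical copies and their counts may not be independent. Il18 stood at 667, 766 and 662 CPM at 4 weeks and 1658, 1582 and 1201 CPM at 12 weeks (log2 fold change 1.08, SE 0.23, adjusted p = 0.00637). Fabp4, a fatty acid carrier, stood at 136, 137 and 111 CPM at 4 weeks and 708, 414 and 231 CPM at 12 weeks (log2 fold change 1.82, SE 0.39, adjusted p = 0.00655). Its 12-week libraries were spread over 3-fold, yet all stood above the 4-week libraries. Among those that fell were Mrc1, the mannose receptor, at 682, 706 and 1015 CPM at 4 weeks and 387, 294 and 429 CPM at 12 weeks (log2 fold change -1.11, SE 0.26, adjusted p = 0.00889), and Mertk, a receptor for dying cells, at 219.8, 175 and 190.5 CPM at 4 weeks and 138, 83.2 and 110.4 CPM at 12 weeks (log2 fold change -0.82, SE 0.22, adjusted p = 0.0167). The call of Mrc1 ended without 4-week library 3 (adjusted p = 0.0535), and that of Mertk ended without 4-week library 1 or 3 or 12-week library 2 (adjusted p = 0.0508 to 0.0762). The count that rose was 4 without 4-week library 1 and the count that fell was 1 without 4-week library 3. With the length trend removed, 3 rose and 3 fell.

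Among 30 measured transcription factors of these cells, 4 rose (13.3%), 2 fell (6.67%) and 24 did not pass. Pparg, the factor that directs their development, stood at 302, 289 and 329.7 CPM at 4 weeks and 172, 352 and 511 CPM at 12 weeks (log2 fold change 0.17, adjusted p = 0.737). Bhlhe40, the partner of Bhlhe41, stood at 467, 428 and 394 CPM at 4 weeks and 90.2, 257 and 469 CPM at 12 weeks (log2 fold change -0.66, adjusted p = 0.251). Spi1, which encodes PU.1, rose by 0.75 on the log2 scale (adjusted p = 0.041) and Id2 by 0.88 (adjusted p = 0.0228). The call of Spi1 ended without 4-week library 1, 2 or 3 or 12-week library 1 (adjusted p = 0.0729 to 0.144) and that of Id2 without 4-week library 1, 2 or 3 or 12-week library 2 (adjusted p = 0.0544 to 0.0904). Klf2 rose by 1.19 (adjusted p = 0.0337) and ended without 4-week library 1 or 3 or 12-week library 3 (adjusted p = 0.0798 to 0.136). Mitf, a regulator of lysosomal genes, fell by 0.77 (adjusted p = 0.0383) and ended without 4-week library 1, 2 or 3 or 12-week library 1 or 2 (adjusted p = 0.057 to 0.194). Bhlhe41 alone in this list passed with every single library left out.

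Growth factor signalling genes gave 2 rises (6.9%) and 4 falls (13.8%) among 29 measured genes of the GM-CSF, TGF-beta and M-CSF pathways, with a median of -0.01. Csf1r, the M-CSF receptor, stood at 174, 163 and 237 CPM at 4 weeks and 95.2, 63.1 and 119 CPM at 12 weeks (log2 fold change -1.05, SE 0.30, adjusted p = 0.0228). Csf2ra, the ligand-binding chain of the GM-CSF receptor, rose by 1.03 on the log2 scale (adjusted p = 0.0365). Tgfb2, a TGF-beta ligand of low level, stood at 0.370, 1.20 and 1.33 CPM at 4 weeks and 5.15, 3.57 and 4.93 CPM at 12 weeks (log2 fold change 2.24, SE 0.56, adjusted p = 0.0122). Itgav, the integrin chain that helps activate TGF-beta, fell by 1.10 (adjusted p = 0.0143) and Skil, a repressor of TGF-beta signalling, by 1.39 (adjusted p = 0.0244). None of these calls passed with every single library left out: Csf1r ended without 4-week library 1 or 3 or 12-week library 2 (adjusted p = 0.0505 to 0.106), Csf2ra without 4-week library 1, 2 or 3 or 12-week library 1 (adjusted p = 0.0743 to 0.181), Tgfb2 without 4-week library 1 (adjusted p = 0.0569), Itgav without 4-week library 3 or 12-week library 2 or 3 (adjusted p = 0.0503 to 0.0893) and Skil without 4-week library 1, 2 or 3 or 12-week library 1 or 2 (adjusted p = 0.0503 to 0.0755). Juvenile growth genes were mostly not expressed, and 9 of them were tested, of which 1 rose and 1 fell (11.1% each). Igf2bp3, a fetal-type RNA-binding protein (ENSMUSG00000029814, chr6:49085223-49214957), stood at 6.08, 3.78 and 5.87 CPM at 4 weeks and 0.242, 0.446 and 0.228 CPM at 12 weeks (log2 fold change -4.06, SE 0.44, adjusted p = 0.000458). Every 12-week library was less than 0.2 times the lowest 4-week library. Igf1, insulin-like growth factor 1, stood at 36.2, 35.3 and 17.9 CPM at 4 weeks and 83.3, 61 and 49 CPM at 12 weeks (log2 fold change 1.11, SE 0.33, adjusted p = 0.0272), a call that ended without 4-week library 3 or 12-week library 1 or 2 (adjusted p = 0.0524 to 0.128).

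Cell division genes were lower at 12 weeks. Of 62 measured genes, 2 rose (3.23%), 24 fell (38.7%) and 36 did not pass, against 8.39% of all genes that fell, and the median was -0.76. Plk1, the kinase that drives mitotic entry (ENSMUSG00000030867, chr7:122159439-122169873), stood at 20.1, 14.1 and 11 CPM at 4 weeks and 2.01, 3.50 and 3.79 CPM at 12 weeks (log2 fold change -2.28, SE 0.35, adjusted p = 0.00211). Bub1b, a spindle checkpoint kinase, stood at 99, 97.5 and 107 CPM at 4 weeks and 32.4, 28.4 and 37 CPM at 12 weeks (log2 fold change -1.63, SE 0.27, adjusted p = 0.00281). Top2a, the DNA topoisomerase of dividing cells, stood at 102, 101 and 107 CPM at 4 weeks and 45.7, 28.6 and 34 CPM at 12 weeks (log2 fold change -1.52, SE 0.25, adjusted p = 0.00281). For these 3 genes all 12-week libraries were below all 4-week libraries. Prc1, a midzone microtubule bundler, fell by 1.56 on the log2 scale (adjusted p = 0.0032), Kif23 by 1.39 (adjusted p = 0.00478), Ccnb1, cyclin B1, by 1.12 (adjusted p = 0.0103) and Mcm4, a subunit of the replicative helicase, by 1.60 (adjusted p = 0.00445). Mki67, the proliferation marker, stood at 29.2, 36.6 and 38.9 CPM at 4 weeks and 25.4, 9.90 and 13.4 CPM at 12 weeks (log2 fold change -1.10, SE 0.34, adjusted p = 0.0349), and its call ended without 4-week library 1, 2 or 3 or 12-week library 2 or 3 (adjusted p = 0.057 to 0.132). The 2 members that rose were Cdkn2b, an inhibitor of CDK4 and CDK6 (log2 fold change 1.78, adjusted p = 0.0363), and Ccne2, cyclin E2 (log2 fold change 0.96, adjusted p = 0.049), and these calls ended with any single library left out (adjusted p = 0.0543 to 0.134) for Cdkn2b and without 4-week library 1, 2 or 3 or 12-week library 1 (adjusted p = 0.0856 to 0.289) for Ccne2. The number that fell ranged from 17 to 28 with 1 library left out. It was 17 with the length trend removed.

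**Figure D2:**
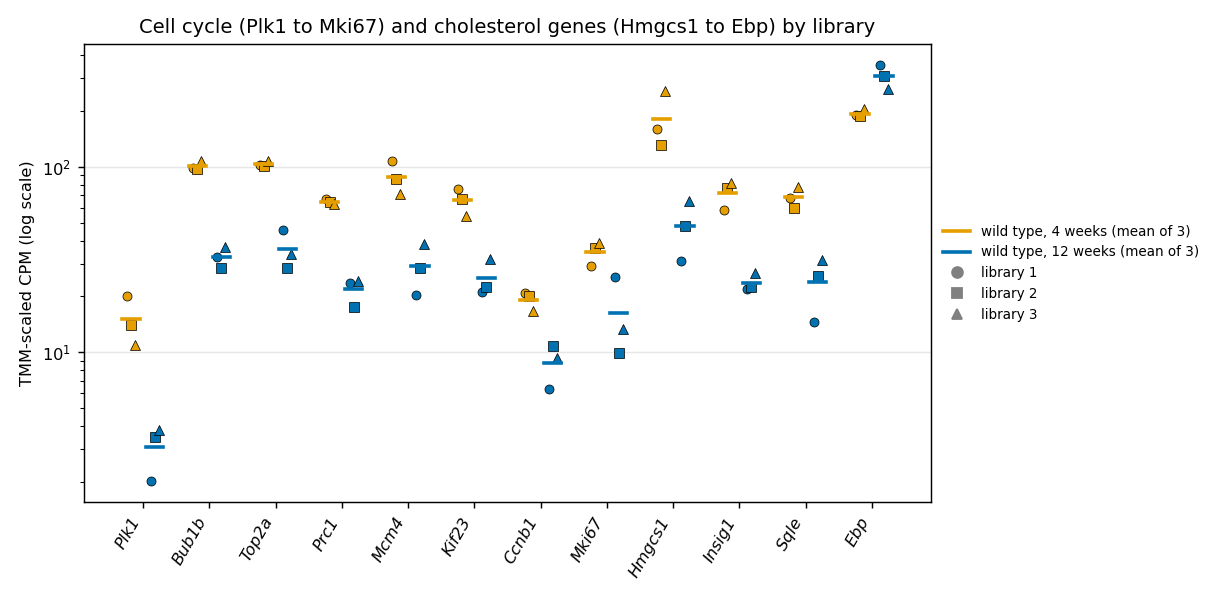
Levels of 8 cell cycle genes and 4 cholesterol pathway genes in each wild-type library (log axis, TMM-scaled CPM; points are libraries, bars are means of 3). All 8 cell cycle genes and Hmgcs1, Insig1 and Sqle are lower at 12 weeks, while Ebp is higher.

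Sterol synthesis and uptake genes fell more often than they rose. These genes are switched on by the factor SREBP2 when cell cholesterol is low. Of 24 measured genes, 1 rose, 10 fell and 13 did not pass, with a median of -0.62. These shares were 4.17% and 41.7%, against 8.79% and 8.39% of all genes. Hmgcs1, an enzyme early in the synthesis pathway (ENSMUSG00000093930, chr13:119690379-119708260), stood at 159, 131 and 254 CPM at 4 weeks and 30.9, 48 and 65.4 CPM at 12 weeks (log2 fold change -1.91, SE 0.34, adjusted p = 0.00368). Insig1, which retains the SREBP escort in the endoplasmic reticulum and is itself a target, stood at 58.1, 76.6 and 81.5 CPM at 4 weeks and 21.9, 22.3 and 26.9 CPM at 12 weeks (log2 fold change -1.61, SE 0.28, adjusted p = 0.00368). Sqle, squalene epoxidase, stood at 67.9, 59.7 and 77.3 CPM at 4 weeks and 14.6, 25.9 and 31.5 CPM at 12 weeks (log2 fold change -1.51, SE 0.30, adjusted p = 0.00478). The ages were separate for each of the 3 genes. Cyp51, a demethylase of lanosterol, fell by 1.04 on the log2 scale (adjusted p = 0.0116). Srebf2, the factor's own gene, fell by 0.81 (adjusted p = 0.0379), which ended without 4-week library 1 or 3 or 12-week library 2 or 3 (adjusted p = 0.0785 to 0.149). Ebp, a sterol isomerase, was the exception at 0.67 (adjusted p = 0.0491, but 0.075 to 0.137 without 4-week library 1, 2 or 3 or 12-week library 1 or 2). The count that fell was 6 without 4-week library 3 and 5 with the length trend removed.

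Other lipid genes moved both ways. Of 13 measured genes of fatty acid synthesis, 1 rose and 1 fell (7.69% each, near the shares of all genes). Acly, which makes cytosolic acetyl-CoA, fell from 239, 212 and 345 CPM to 89.8, 60.5 and 101 CPM (log2 fold change -1.67, SE 0.36, adjusted p = 0.00656). Scd1, the desaturase that makes oleate, rose from 1.64, 3.50 and 1.81 CPM to 8.98, 7 and 7.03 CPM (log2 fold change 1.73, SE 0.34, adjusted p = 0.00458). No other member passed. Of 30 genes of lipid uptake and storage, 4 rose (13.3%), 6 fell (20%) and 20 did not pass. Scarb1, the receptor for high-density lipoprotein, stood at 203, 161 and 209 CPM at 4 weeks and 80.2, 47.7 and 67.1 CPM at 12 weeks (log2 fold change -1.55, SE 0.27, adjusted p = 0.00368), and Olr1, a receptor for oxidised lipoprotein, fell by 1.15 (adjusted p = 0.0109, but 0.0597 without 4-week library 3). Of 20 genes of cholesterol efflux, 3 rose (15%), 2 fell (10%) and 15 did not pass, and Soat1, which stores cholesterol as ester, stood at 419, 462 and 510.2 CPM at 4 weeks and 114, 211 and 271 CPM at 12 weeks (log2 fold change -1.22, SE 0.31, adjusted p = 0.0133), a call that ended without 4-week library 3 (adjusted p = 0.0534). Abca1 and Abcg1, the cholesterol exporters, did not pass (log2 fold change 0.33 and -0.20, adjusted p = 0.449 and 0.742). Of 30 genes of fatty acid oxidation, 3 rose (10%), 6 fell (20%) and 21 did not pass. Cpt1a, the gate for fatty acid entry into mitochondria, stood at 284, 254 and 345 CPM at 4 weeks and 147, 94.5 and 144 CPM at 12 weeks (log2 fold change -1.19, SE 0.27, adjusted p = 0.00798). Acox3, a peroxisomal oxidase, fell by 1.17 (adjusted p = 0.00731). Etfb, an electron carrier of the pathway, rose by 0.94 (adjusted p = 0.0115, but 0.0624 without 4-week library 3).

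Many genes of the nuclear-encoded respiratory chain and of the ribosome rose. Of 76 measured respiratory chain genes, 50 rose (65.8%), 2 fell (2.63%) and 24 did not pass, with a median of 0.88. Ndufs8, a subunit of complex I, stood at 266, 271 and 254 CPM at 4 weeks and 646, 616 and 492 CPM at 12 weeks (log2 fold change 1.15, SE 0.20, adjusted p = 0.00368). Uqcrh, a subunit of complex III, stood at 212, 221 and 203 CPM at 4 weeks and 678, 561 and 469.9 CPM at 12 weeks (log2 fold change 1.43, SE 0.25, adjusted p = 0.00368). The 2 ages were separate for both. The 2 members that fell were Atp5d, a subunit of the ATP synthase (log2 fold change -1.63, adjusted p = 0.0281), and Sdha, the catalytic subunit of complex II (log2 fold change -0.92, adjusted p = 0.0391). The call of Atp5d ended without 4-week library 1, 2 or 3 or 12-week library 2 or 3 (adjusted p = 0.0551 to 0.113) and that of Sdha without 4-week library 1, 2 or 3 or 12-week library 1 or 2 (adjusted p = 0.0542 to 0.164). Of 76 ribosomal protein genes, 41 rose (53.9%), none fell and 35 did not pass, with a median of 0.80. Rps14 stood at 844, 888 and 769 CPM at 4 weeks and 2585, 2413 and 2340.1 CPM at 12 weeks (log2 fold change 1.55, SE 0.28, adjusted p = 0.00387), and Rps18, Rps15 and Rpl13a rose by 1.42, 1.40 and 1.35 on the log2 scale. Ribosomal protein genes have many processed copies, so their counts are uncertain where reads could match a copy.

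These 2 groups consist of short transcripts, with median lengths of 1135 and 1100.0 nucleotides, and the age difference followed transcript length over all genes. The median log2 fold change was 0.62 for the 1315 genes of up to 1000 nucleotides, 0.36 for those of 1001 to 2000, -0.29 for those of 4501 to 7000 and -0.38 for the 1004 longer ones. Among the shortest genes 23.4% rose and 1.06% fell, and among the longest 1.69% rose and 12.9% fell. The Spearman correlation of length with the fold change across 13274 genes, which are not independent, was -0.34 in wild-type and -0.31 in knockout cells. With a smooth trend of each library on transcript length removed, 1364 genes passed (828 rose and 536 fell), and 1153 of the 2282 genes were among them. Calls of named genes that ended there included Cybb, Tmsb4x, Iqgap1, Csf1r, Ear2 and Il18 (adjusted p = 0.052 to 0.155). On that scale 29 respiratory chain genes rose and 1 fell, and 19 ribosomal protein genes rose. All 30 of the largest rises and falls passed there too. The respiratory chain count was 32 without 4-week library 3 and the ribosomal count 23 without 4-week library 1. The part of length in the group results beyond these values was not tested.

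**Figure D3:**
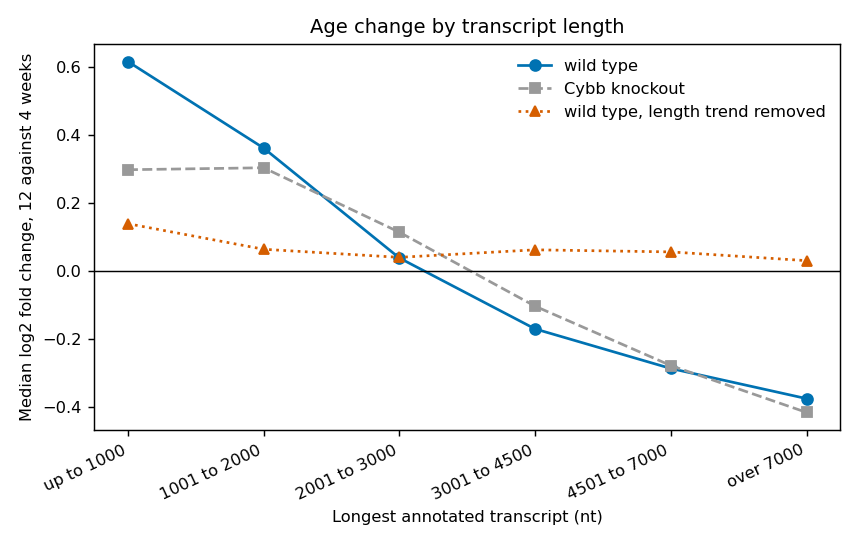
Median log2 fold change (12 against 4 weeks) of genes grouped by the length of their longest transcript, in wild-type cells, in knockout cells, and in wild-type cells after the length trend was removed. The wild-type medians run from 0.62 in the shortest group to -0.38 in the longest, and the adjusted medians stay near 0.

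Of 10 measured genes of the mitochondrial genome itself, 3 rose, none fell and 7 did not pass, so that 30% rose against 8.79% of all genes. mt-Nd1, a complex I subunit, stood at 941, 997 and 1592 CPM at 4 weeks and 2598, 2374 and 2406 CPM at 12 weeks (log2 fold change 1.06, SE 0.27, adjusted p = 0.0126), and its call ended without 4-week library 1 (adjusted p = 0.069) and 4-week library 2 (adjusted p = 0.0608). The share of all counts from mitochondrially encoded genes was 0.738%, 0.788% and 1.17% at 4 weeks and 1.29%, 1.13% and 1.26% at 12 weeks (difference of the means 0.327 percentage points, exact permutation test, two-sided, p = 0.2, where the smallest p that 3 against 3 allows is 0.1). With the length trend removed none of the 10 genes passed. Glycolysis and hypoxia genes gave 2 rises (5.56%) and 5 falls (13.9%) among 36 measured. Hk3, a myeloid hexokinase, stood at 52.2, 47.9 and 43.7 CPM at 4 weeks and 16.8, 17.7 and 25.5 CPM at 12 weeks (log2 fold change -1.26, SE 0.25, adjusted p = 0.00478), and Pfkfb3, which makes the activator of phosphofructokinase, fell by 1.66 (adjusted p = 0.00808). Higd1a, a respiratory chain factor induced by hypoxia, rose by 1.13 (adjusted p = 0.0089).

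Receptors for microbial products were lower more often than higher at 12 weeks. Of 41 measured genes of pattern recognition, 3 rose (7.32%), 10 fell (24.4%) and 28 did not pass, with a median of -0.29. Tlr8, a sensor of single-stranded RNA in endosomes, stood at 24.3, 28.8 and 44.4 CPM at 4 weeks and 8.69, 7.39 and 10.2 CPM at 12 weeks (log2 fold change -1.89, SE 0.33, adjusted p = 0.00351). Tlr13, a sensor of bacterial ribosomal RNA, stood at 42.5, 53.9 and 69.6 CPM at 4 weeks and 27.4, 11.4 and 19.4 CPM at 12 weeks (log2 fold change -1.51, SE 0.32, adjusted p = 0.00602). Tlr7 fell by 0.93 (adjusted p = 0.0123), a call that ended without 4-week library 3 (adjusted p = 0.0543) and 12-week library 2 (adjusted p = 0.0546), and Nlrp3, an inflammasome sensor, by 1.02 (adjusted p = 0.0313), which ended without 4-week library 1, 2 or 3 or 12-week library 1 or 2 (adjusted p = 0.0505 to 0.121). Pycard, the inflammasome adaptor ASC, went up, at 96.1, 105 and 90.2 CPM at 4 weeks and 216, 249 and 194 CPM at 12 weeks (log2 fold change 1.18, SE 0.22, adjusted p = 0.00443). Tlr4 and Tlr2 did not pass (log2 fold change -1.08 and -0.16, adjusted p = 0.1 and 0.723). The number that fell depended on single libraries, at 2 without 4-week library 3, and was 5 with the length trend removed.

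Scavenger and phagocytic receptors leaned the other way. Of 36 measured, 11 rose (30.6%), 4 fell (11.1%) and 21 did not pass, with a median of 0.50. Clec4n, known as Dectin-2, a receptor for fungal mannans, stood at 827, 1011 and 762 CPM at 4 weeks and 1844, 2428 and 1879 CPM at 12 weeks (log2 fold change 1.24, SE 0.22, adjusted p = 0.00368). Clec4d stood at 10.5, 14 and 8.89 CPM at 4 weeks and 56.4, 25.5 and 21.2 CPM at 12 weeks (log2 fold change 1.63, SE 0.34, adjusted p = 0.00564). Clec12a and Fcgr2b, inhibitory receptors for uric acid crystals and for IgG, rose by 1.06 and 0.92 on the log2 scale (adjusted p = 0.00608 and 0.00887). Of the members that fell, Scarb1 and Mrc1 are given above. Marco, the class A receptor for particles, did not pass (log2 fold change -0.45, adjusted p = 0.394). The number that rose was 4 without 4-week library 1 and 7 with the length trend removed. Genes for the clearance of dying cells gave no rise and 5 falls (17.2%) among 29 measured. Cd93 stood at 34.4, 29.2 and 41.5 CPM at 4 weeks and 8.86, 11.8 and 10.1 CPM at 12 weeks (log2 fold change -1.77, SE 0.36, adjusted p = 0.00524), and Dock1, an activator of Rac in engulfment, fell by 1.25 (adjusted p = 0.00819, but 0.055 without 4-week library 3). The number that fell in this group was 1 without 4-week library 3. Of 18 complement genes none rose and 2 fell (11.1%, near the 8.39% of all genes). C3 and the receptor C5ar2 fell by 1.31 and 1.20 (adjusted p = 0.00891 and 0.0168). The call of C3 ended without 4-week library 3 (adjusted p = 0.0516) and that of C5ar2 without 4-week library 2 (adjusted p = 0.0517) and 4-week library 3 (adjusted p = 0.0506).

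Genes of lipid-associated macrophages gave 9 rises (36%) and no fall among 25 measured, with a median of 0.33. Cd63, a tetraspanin of late endosomes, stood at 80.4, 102 and 64 CPM at 4 weeks and 307, 351 and 259.6 CPM at 12 weeks (log2 fold change 1.90, SE 0.37, adjusted p = 0.00458). Lgals1, galectin 1, stood at 667, 675 and 604 CPM at 4 weeks and 2352, 1545 and 1334 CPM at 12 weeks (log2 fold change 1.43, SE 0.26, adjusted p = 0.00387). Both were separate between the ages. Trem2, a lipid receptor that signals through Tyrobp, rose by 0.93 (adjusted p = 0.049), a call that ended without 4-week library 1, 2 or 3 or 12-week library 1 or 2 (adjusted p = 0.0569 to 0.199). The count that rose was 5 without 4-week library 3. Of 61 measured lysosomal genes, 7 rose, 6 fell and 48 did not pass, and these shares (11.5% and 9.84%) were near those of all genes (8.79% and 8.39%). Within the proton pump, the small subunits Atp6v1f and Atp6v0e rose by 1.39 and 1.07 (adjusted p = 0.00387 and 0.00826), and the large subunit Atp6v0a1 fell by 1.46 (adjusted p = 0.0048). The lysosomal rises were 3 without 4-week library 1 and the falls 2 without 4-week library 1. With the length trend removed, 5 lysosomal genes rose and 2 fell, and the part of length in the proton pump calls was not tested.

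**Figure D4:**
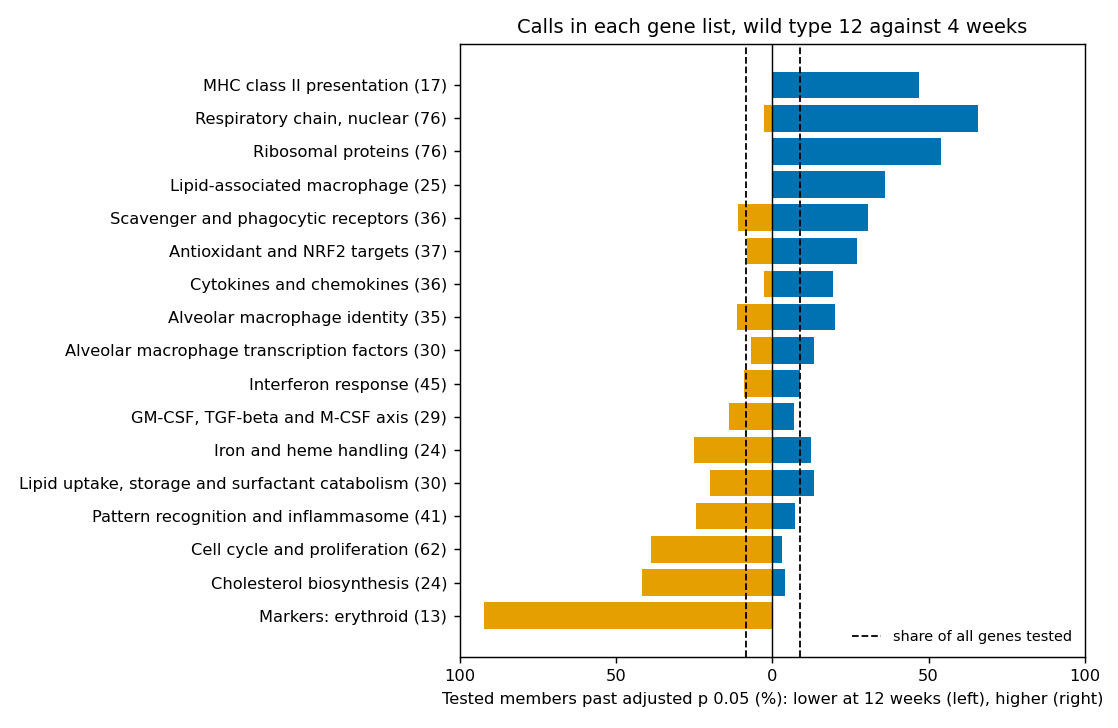
Percent of the measured members of 17 gene lists that rose (right) or fell (left) from 4 to 12 weeks in wild-type cells at an adjusted p of 0.05, with dashed lines at the shares of all genes, 8.79% and 8.39%. Respiratory chain, ribosomal and class II genes have the highest shares of rises, and erythroid markers, cholesterol and cell cycle genes the highest shares of falls among the lists plotted.

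Cytokine and chemokine genes rose more often than they fell. Of 36 measured cytokines and chemokines, 7 rose (19.4%), 1 fell (2.78%) and 28 did not pass, with a median of 0.76. Ccl5, a T cell attractant, stood at 0.819, 1.48 and 0.786 CPM at 4 weeks and 6.56, 8.21 and 3.47 CPM at 12 weeks (log2 fold change 2.57, SE 0.46, adjusted p = 0.00368). Pf4, platelet factor 4, stood at 1.80, 1.24 and 1.12 CPM at 4 weeks and 9.30, 6.94 and 6.89 CPM at 12 weeks (log2 fold change 2.47, SE 0.38, adjusted p = 0.0021). Lif, a cytokine of the IL-6 family, stood at 2.83, 3.02 and 1.51 CPM at 4 weeks and 0.322, 0.318 and 0.730 CPM at 12 weeks (log2 fold change -2.44, SE 0.45, adjusted p = 0.00397). All 3 genes were at low levels and separate between the ages. Il1b, Tnf and Cxcl2 did not pass (adjusted p = 0.808, 0.81 and 0.952). The count that rose was 4 without 4-week library 3. Interferon response genes gave 4 rises and 4 falls among 45, with a median of -0.34. These shares (8.89% each) were near those of all genes (8.79% and 8.39%). Ddx58, which encodes the RNA sensor RIG-I, stood at 25.7, 28.5 and 32.6 CPM at 4 weeks and 9.62, 9.96 and 14.3 CPM at 12 weeks (log2 fold change -1.36, SE 0.31, adjusted p = 0.0089). Ifi35 rose by 0.75 (adjusted p = 0.0179), which ended without 4-week library 1 or 3 or 12-week library 2 (adjusted p = 0.0579 to 0.0862). Isg15 did not pass (adjusted p = 0.227). The rises were 0 without 4-week library 1, and the falls 2 without 4-week library 1.

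NF-kappaB subunits and targets gave 3 rises and 3 falls among 29 (10.3% each, near the 8.79% and 8.39% of all genes). Cyld, a deubiquitinase that restrains the pathway, stood at 30.7, 36.5 and 34.5 CPM at 4 weeks and 15.1, 11.3 and 14.7 CPM at 12 weeks (log2 fold change -1.31, SE 0.23, adjusted p = 0.00357). The rises were Bcl2a1a, Bcl2a1b and Bcl2a1d, survival factors of the BCL2 family, at 0.99, 0.97 and 0.90 on the log2 scale. These copies are near-identical, so the 3 calls may be 1 signal, and they ended without 4-week library 1 (adjusted p = 0.0554) and 4-week library 3 (adjusted p = 0.0709) for Bcl2a1a, without 4-week library 1 (adjusted p = 0.0547) and 4-week library 3 (adjusted p = 0.076) for Bcl2a1b and without 4-week library 1 (adjusted p = 0.0678) and 4-week library 3 (adjusted p = 0.0926) for Bcl2a1d. Immediate early and handling genes gave 1 rise (3.33%) and no fall among 30. It was Rhob, a small GTPase, at 14, 20.4 and 17.4 CPM at 4 weeks and 53.7, 34.6 and 36.3 CPM at 12 weeks (log2 fold change 1.27, SE 0.24, adjusted p = 0.00445). Fos, Jun and Egr1 did not pass (adjusted p = 0.38, 0.854 and 0.867). Of 15 circadian clock genes 2 rose (13.3%) and 1 fell (6.67%). Nr1d2 and Nfil3 rose by 1.33 and 0.87 (adjusted p = 0.022 and 0.0441) and Bhlhe41 fell. The call of Nr1d2 ended without 4-week library 1 or 3 or 12-week library 3 (adjusted p = 0.0702 to 0.0892) and that of Nfil3 without 4-week library 1, 2 or 3 or 12-week library 1 or 3 (adjusted p = 0.0512 to 0.191). Of 13 glucocorticoid targets 1 rose (7.69%, near the 8.79% of all genes) and none fell. Mt1, metallothionein 1, rose by 1.30 (adjusted p = 0.0273), and this ended without 4-week library 1, 2 or 3 or 12-week library 1 (adjusted p = 0.0721 to 0.141).

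Antioxidant genes rose more often than they fell. Of 37 measured, 10 rose (27%), 3 fell (8.11%) and 24 did not pass, with a median of 0.51. Prdx5, a peroxiredoxin of mitochondria and peroxisomes, stood at 664, 749 and 581 CPM at 4 weeks and 1442, 1836 and 1361 CPM at 12 weeks (log2 fold change 1.22, SE 0.23, adjusted p = 0.00422). Prdx2 stood at 207, 247 and 214 CPM at 4 weeks and 572, 545 and 432 CPM at 12 weeks (log2 fold change 1.21, SE 0.24, adjusted p = 0.00458). Mgst2 and Mgst1, microsomal glutathione transferases, rose by 1.71 and 1.30 on the log2 scale (adjusted p = 0.00458 and 0.00547). Gpx3, the secreted glutathione peroxidase, fell by 1.69 (adjusted p = 0.0111). Hmox1 and Nqo1, classical NRF2 targets, did not pass (adjusted p = 0.967 and 0.211). The count that rose was 6 without 4-week library 3.

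Smaller groups had a few clear members each, and their shares stand against 8.79% of all genes that rose and 8.39% that fell. In the unfolded protein response, Hyou1, a chaperone of the endoplasmic reticulum, fell by 1.58 (adjusted p = 0.00447) and Xbp1, its transcription factor, rose by 1.13 (adjusted p = 0.00798), within 3 rises and 4 falls among 31 genes (9.68% and 12.9%). Of 31 matrix genes, the sheddases Adam17 and Adam10 fell (6.45%) and Timp2, an inhibitor of matrix proteases, rose (3.23%). Adam17 stood at 123, 112 and 143 CPM at 4 weeks and 41.3, 28.2 and 48.1 CPM at 12 weeks (log2 fold change -1.69, SE 0.26, adjusted p = 0.00211), and Timp2 stood at 5.87, 7.55 and 5.56 CPM at 4 weeks and 49.1, 16 and 15.7 CPM at 12 weeks (log2 fold change 2.09, SE 0.40, adjusted p = 0.00453). The 12-week library 1 was about 3 times its replicates for Timp2, and the log2 fold change without it was 1.33. In eicosanoid synthesis, with 3 rises and 3 falls among 25 (12% each), Alox5ap, the activator of 5-lipoxygenase, stood at 1582, 1612 and 1389.7 CPM at 4 weeks and 4405, 3316 and 2738 CPM at 12 weeks (log2 fold change 1.19, SE 0.23, adjusted p = 0.00458). Ptgir, the prostacyclin receptor, fell by 1.74 (adjusted p = 0.00955), and Ephx1 and Ptges2 rose by 1.65 and 1.92 (adjusted p = 0.00405 and 0.00657). Among 28 adhesion genes, Itgal, the alpha chain of LFA-1, stood at 327, 288 and 366 CPM at 4 weeks and 166, 80.03 and 116 CPM at 12 weeks (log2 fold change -1.44, SE 0.26, adjusted p = 0.00368), and Cdh1, E-cadherin, fell by 1.53 (adjusted p = 0.00405). In all, 3 adhesion genes rose and 3 fell (10.7% each). Of 32 survival genes, 6 rose (18.8%), 2 fell (6.25%) and 24 did not pass, and no member passed with every single library left out. Stat6, which relays IL-4 and IL-13, fell by 1.26 (adjusted p = 0.00766) within the alternative activation genes, of which 2 rose, 2 fell (8.33% each) and 20 did not pass among 24. Among 34 chemoattractant receptors 2 rose (5.88%), 3 fell (8.82%) and 29 did not pass, and Cxcr2 fell by 1.42 (adjusted p = 0.0189, but 0.0878 without 4-week library 1 and 0.0534 without 12-week library 1).

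Markers of red cells fell between the ages, and 1 library carried much of this. The erythroid markers summed to 2417, 8776 and 1880 CPM of the library total at 4 weeks and to 1387, 529 and 748 CPM at 12 weeks. All 4-week libraries were above all 12-week libraries, and library 2 at 4 weeks was the highest (exact permutation test, two-sided, p = 0.1, the smallest that 3 against 3 allows). Of 13 measured markers 12 fell (92.3%) and none rose. Without 4-week library 2, 3 fell, and without both that library and 12-week library 1, 1 fell. Alas2, the first enzyme of haem synthesis in red cells, stood at 153, 553 and 107 CPM at 4 weeks and 16.3, 29.2 and 35.5 CPM at 12 weeks (log2 fold change -3.33, SE 0.63, adjusted p = 0.00458). Car2, carbonic anhydrase 2, stood at 7.32, 81.2 and 5.14 CPM at 4 weeks and 1.29, 1.97 and 2.42 CPM at 12 weeks (log2 fold change -4.04, SE 0.87, adjusted p = 0.00766), Tent5c, a poly(A) polymerase, at 9.46, 37 and 7.74 CPM at 4 weeks and 2.58, 0.573 and 1.14 CPM at 12 weeks (log2 fold change -3.67, SE 0.60, adjusted p = 0.00281), and Rsad2, known as viperin, at 5.52, 28.1 and 3.02 CPM at 4 weeks and 1.81, 0.286 and 0.867 CPM at 12 weeks (log2 fold change -3.64, SE 0.79, adjusted p = 0.00747). In all of these, 4-week library 2 was the highest. Without it the log2 fold change was -2.27 for Alas2, -1.72 for Car2, -2.60 for Tent5c and -2.13 for Rsad2. The part of red cell RNA in the falls of Tent5c and Rsad2 was not tested. The globin genes are near-identical copies and are not given singly.

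Some markers of other white cells rose. Monocyte and monocyte-derived macrophage markers summed to 708 to 782 CPM at 4 weeks and 574 to 798 CPM at 12 weeks, and 5 of 19 rose (26.3%) and none fell. Ms4a6c stood at 20.2, 28.9 and 20.4 CPM at 4 weeks and 108, 63.7 and 52.9 CPM at 12 weeks (log2 fold change 1.69, SE 0.28, adjusted p = 0.00312), and S100a4 stood at 0.793, 1.10 and 2.24 CPM at 4 weeks and 7.45, 6.02 and 6.71 CPM at 12 weeks (log2 fold change 2.29, SE 0.42, adjusted p = 0.00397). Ly6c2 and Ccr2, which define classical monocytes, had at most 13.6 CPM in any library. Interstitial macrophage markers gave 2 rises among 14 (14.3%), with sums of 691 to 907 CPM and 500.2 to 1037 CPM. T and NK cell markers gave 5 rises among 23 (21.7%) and no fall, and summed to 852 to 946 CPM at 4 weeks and 1385 to 1597 CPM at 12 weeks. Cd2 stood at 761, 846 and 804 CPM at 4 weeks and 1331, 1834 and 1515 CPM at 12 weeks on the TMM scale (log2 fold change 0.96, SE 0.21, adjusted p = 0.00766). It made up most of that sum, which is not TMM-scaled, and 19 of the 24 genes were below 1 CPM in all 6 libraries. Neutrophil markers gave 2 rises (16.7%) and 1 fall (8.33%) among 12, with sums of 407 to 468 CPM and 658 to 907 CPM. Wfdc21 stood at 244, 292 and 235 CPM at 4 weeks and 778, 647 and 569.8 CPM at 12 weeks (log2 fold change 1.37, SE 0.29, adjusted p = 0.00601). It made up most of these sums, and 9 of the 17 neutrophil genes in the table were below 1 CPM in all 6 libraries. S100a8 rose by 1.47 (adjusted p = 0.0145, but 0.0605 to 0.0668 without 4-week library 1 or 3 or 12-week library 1). The fall was that of the receptor Cxcr2, given above, and Ly6g had no count.

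Markers of lung epithelium gave 3 rises (15%) and 2 falls (10%) among 20, with sums of 1401 to 1713 CPM and 1055 to 1971 CPM. Lyz1, the lysozyme of Paneth and airway cells and close in sequence to Lyz2, stood at 7.37, 10.4 and 7.47 CPM at 4 weeks and 20.7, 25.5 and 19.4 CPM at 12 weeks (log2 fold change 1.38, SE 0.23, adjusted p = 0.00312), and Abca3, a lipid transporter of surfactant-producing cells, at 19.1, 18.3 and 24.5 CPM at 4 weeks and 10.8, 8.12 and 9.54 CPM at 12 weeks (log2 fold change -1.12, SE 0.25, adjusted p = 0.00722). Both measured platelet markers, Clec1b and Pf4, rose, and 8 of the 11 platelet genes in the table were below 1 CPM in all 6 libraries. Eosinophil, mast cell, B cell, and fibroblast and endothelial markers gave no call, with 4, 3, 8 and 2 genes measured. Mast cell markers summed to at most 0.853 CPM and eosinophil markers to at most 30.3 CPM in any library. The part of other cell types in the age differences was not tested.

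The age change was then set beside that of knockout cells, which lack the oxidase subunit encoded by Cybb. Cybb transcript was still counted in knockout CD11b-low cells, at 204 ± 18.6 CPM at 4 weeks and 163 ± 26.4 CPM at 12 weeks (SD, n = 3). Knockout CD11b-low cells gave 915 genes past the threshold between 4 and 12 weeks (6.89%), of which 639 rose and 276 fell. The count was 1979 when wild-type 12-week library 1 was left out of the shared fit. Of the wild-type calls, 389 were also called in the same direction in the knockout (17.0% of the wild-type and 42.5% of the knockout calls), 6 were called in the opposite direction, and 2152 (94.3%) had the same sign. The share with the same sign over all genes tested was not computed, so the 94.3% has no baseline here. Both genotypes held the transcript length trend described above, and its part in the shared signs was not tested. These 2 comparisons share no library, but they share the fit's estimate of spread. The difference of the age change between the genotypes passed for 33 genes (0.248% of those tested), and 1103 had an unadjusted p under 0.05. The count was 13 without 4-week library 2, and 21 without 12-week library 1 or library 3. In all 33 the wild-type log2 change was the lower of the 2. Among them 13 were also called in wild-type cells and 26 in knockout cells.

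Leading class II genes rose in both genotypes. H2-Aa had log2 fold changes of 4.70 in wild-type and 4.53 (adjusted p = 0.00016) in knockout cells, Cd74 of 4.10 and 4.11 (adjusted p = 0.000172), and H2-Eb1 of 4.18 and 4.58 (adjusted p = 0.000487). H2-Ab1 did not pass in the knockout, with 3.42 (adjusted p = 0.0572). In the knockout 6 of the 17 class II genes rose, against 8 in wild-type cells. Over all 13284 genes tested, 639 rose in the knockout and 1167 in wild-type cells. Clec1b rose by 3.28 and 3.50 (adjusted p = 8.34e-05), Lyz2 by 1.46 and 1.43 (adjusted p = 0.00491), and Igf2bp3 fell by 4.06 in wild-type, with -3.43 (adjusted p = 0.00016) in the knockout. Fth1 fell by 2.91 in wild-type, with -3.08 (adjusted p = 0.0149) in the knockout. All 15 of the largest wild-type rises had the same sign in the knockout and 7 passed there. Of the 15 largest falls, 12 had the same sign and 1, Fth1, passed.

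Other lists had lower or higher counts in the knockout than in wild-type cells. Calls were fewer in the knockout over all 13284 genes as well, at 6.89% against 17.2%. Rises numbered 639 against 1167 and falls 276 against 1115. In the knockout 2 of 62 cell cycle genes fell, against 24 in wild-type cells, and 1 of 24 cholesterol pathway genes, against 10. There 8 of 76 respiratory chain genes and none of 76 ribosomal protein genes rose, against 50 and 41. In the other direction, 16 of 36 cytokine and chemokine genes rose in the knockout, against 7, and 13 of 61 lysosomal genes, against 7. So did 10 of 31 matrix genes, against 1, and 8 of 45 interferon response genes, against 4. Of the markers of other cells, 17 of 23 T and NK cell markers rose in the knockout, against 5, and 10 of 19 monocyte markers, against 5. The test of the difference between the genotypes passed for 3 T and NK cell markers, 1 monocyte marker and 1 matrix gene and for no member of the other lists in this paragraph, so most of these counts do not show that the changes differ. Hmgcs1 had log2 fold changes of -1.91 and -0.55 (adjusted p = 0.312) (difference -1.36, SE 0.46, adjusted p = 0.36). For Plk1 they were -2.28 and -0.55 (adjusted p = 0.318) (difference -1.72, SE 0.48, adjusted p = 0.211). For Bhlhe41 they were -2.49 and -0.26 (adjusted p = 0.784) (difference -2.23, SE 0.65, adjusted p = 0.248). Among the genes that did pass, Osbpl3, an oxysterol-binding protein, stood at 54.7, 37.9 and 51.1 CPM at 4 weeks and 11.6, 18.7 and 13.4 CPM at 12 weeks in wild-type cells (log2 fold change -1.71, SE 0.26, adjusted p = 0.00206), with 0.40 (adjusted p = 0.341) in the knockout. Ptafr, the receptor for platelet-activating factor, fell by 1.18 in wild-type cells (adjusted p = 0.0299, but 0.0558 to 0.102 without 4-week library 2 or 3 or 12-week library 1 or 2), with 1.98 (adjusted p = 0.00333) in the knockout.

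**Figure D5:**
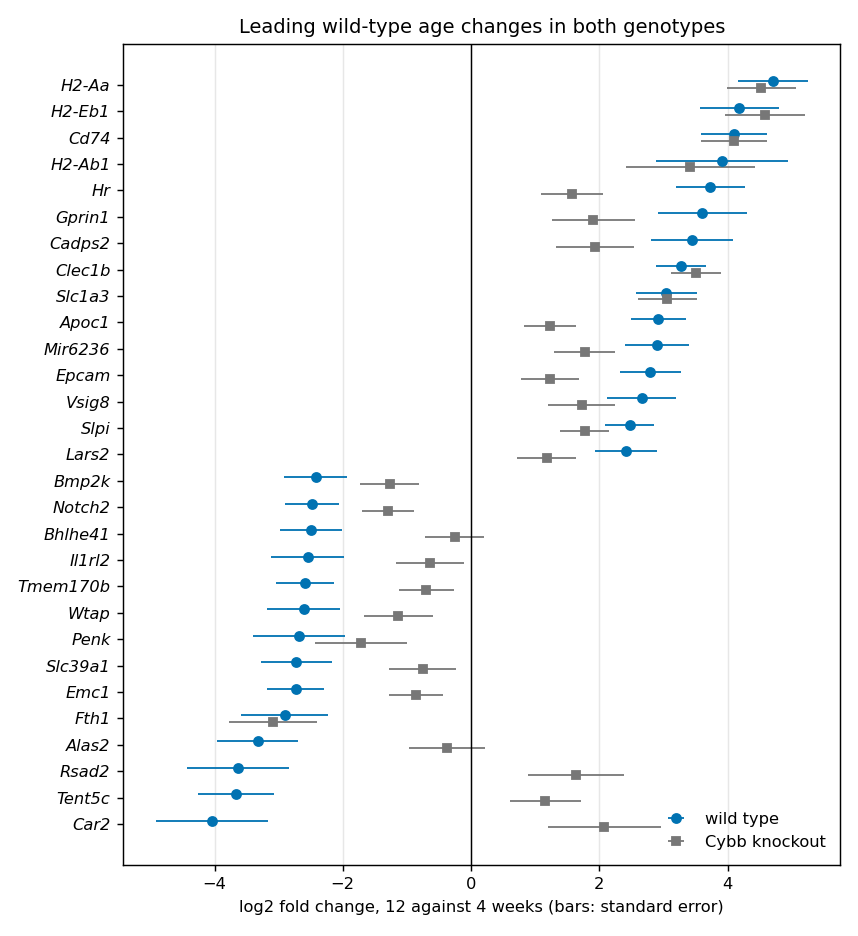
Log2 fold change from 4 to 12 weeks of the 15 largest wild-type rises and of 14 of the 15 largest wild-type falls, in wild-type and in knockout CD11b-low cells (points with standard errors). All 15 rises lie above 0 in both genotypes, and 11 of the 14 falls plotted lie below 0 in both.

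The genes nearest the threshold show what a call at its edge looks like. Just inside were Dvl3 at 5.71, 3.88 and 7.65 CPM at 4 weeks and 1.49, 3.18 and 3.70 CPM at 12 weeks, Aig1 at 8.04, 8.65 and 5.90 CPM at 4 weeks and 12.2, 16.8 and 10.7 CPM at 12 weeks and Mdh1b at 0.661, 1.44 and 0.877 CPM at 4 weeks and 3.94, 2.55 and 1.32 CPM at 12 weeks. Just outside were Rhbdd1 at 50.2, 48.1 and 54.9 CPM at 4 weeks and 13, 27.4 and 31.4 CPM at 12 weeks, Pinx1 at 21, 22 and 23.8 CPM at 4 weeks and 39.4, 32.7 and 29.5 CPM at 12 weeks and Reep5 at 698, 665 and 466 CPM at 4 weeks and 1006, 1055 and 920.2 CPM at 12 weeks.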

How the data were processed

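RNA was sequenced from 6 wild-type libraries (3 at 4 weeks, 3 at 12 weeks), within a series of 15 libraries in 5 groups. Per the labels' protocols, RNA was purified on micro columns and libraries were made with a SMARTer kit, which amplifies full-length cDNA. The deposited values are whole-number counts of reads per gene, in 1 table. STAR, Subread and featureCounts are named without versions in the submitters' processing notes. The genome build, the strand setting and the treatment of reads with several matches are not given in the sources used here, so overlapping and antisense genes and near-identical copies are uncertain.

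The table held 40780 rows, of which 270 repeated 160 genes. After these were joined, 40510 genes remained and 25100 had a count. Genes were kept by edgeR's filterByExpr (minimum count 10, minimum total 15), which left 13284 genes and at least 99.9% of each library's counts. Counts were scaled by TMM and fitted with edgeR 4.0.16 in R 4.3.3 (robust quasi-likelihood fit, 1 coefficient per group, all 15 libraries, 10 residual degrees of freedom). P-values are two-sided and adjusted by Benjamini-Hochberg over all genes tested, with a threshold of 0.05. SE is the standard error of the log2 fold change. Single values per library were compared by exact permutation. The fit was tested on simulated data. Depth limits rare genes: at the smallest library, 1 CPM (counts scaled to a common library total) is 23.4 counts. P-values measure the spread between pools.

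The members and gene lists were chosen with earlier results of these data known. Named genes are the sort markers and Cybb, the 15 largest rises and falls past the threshold without overlap and with at least 10 CPM in the higher group (predicted genes left out), the 5 most abundant in each direction, up to 5 per direction for the genotype difference, up to 4 members per list by adjusted p (the 2 most abundant where none passed), and the 3 genes on either side of the threshold. Further list members were chosen after their values were seen. Some genes that the rule names are not reported here. Alternatives were other scalings (RLE, upper quartile), DESeq2 1.42.0, limma 3.58.1 voom, other filters, other sample sets, a replicate block, and each wild-type library left out in turn. Added after seeing the data were the removal of a transcript length trend, with or without GC content, and leaving out both libraries that stood apart. Lengths and gene positions come from GENCODE M21 on GRCm38, matched by Ensembl ID (13274 genes with a length), and promoters from RefSeq (GRCm38.p6), matched by symbol.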

Additional observations from a re-analysis of the deposited data

Results flagged for a closer look

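The age change differed between the genotypes, by the test of the difference itself, for 5 genes named by the rule. Each value is the wild-type minus the knockout log2 fold change from 4 to 12 weeks. Ear6, a ribonuclease of the eosinophil-associated family, had a difference of -4.84 (SE 0.84, edgeR adjusted p = 0.0231). It stood at 17.7, 23.9 and 26.8 CPM at 4 weeks and 16.5, 12.5 and 10.7 CPM at 12 weeks in wild-type cells and at 21 ± 11.9 CPM at 4 weeks and 349.9 ± 295 CPM at 12 weeks in knockout cells (SD, n = 3). Wfdc17, a small secreted protein, had a difference of -3.13 (SE 0.59, edgeR adjusted p = 0.0328), with 75.3, 94 and 78.9 CPM at 4 weeks and 165, 123 and 106 CPM at 12 weeks in wild-type cells and 94.6 ± 25.8 CPM at 4 weeks and 1316 ± 847 CPM at 12 weeks in knockout cells (SD, n = 3). For both genes the wild-type change did not pass (adjusted p = 0.37 and 0.277), while the knockout change did (adjusted p = 0.0015 and 0.00016). Tent5c had a difference of -4.82 (SE 0.81, edgeR adjusted p = 0.0177), and 4-week library 2, which was rich in red cell transcript, held its highest wild-type level. Ptafr had a difference of -3.15 (SE 0.50, edgeR adjusted p = 0.0177), with a knockout level of 21.3 ± 4.41 CPM at 4 weeks and 83.9 ± 15.7 CPM at 12 weeks (SD, n = 3). Osbpl3 had a difference of -2.11 (SE 0.36, edgeR adjusted p = 0.0177), with a knockout level of 49.96 ± 12.4 CPM at 4 weeks and 65.8 ± 3.51 CPM at 12 weeks (SD, n = 3).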

How the results depend on the processing

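No called gene named in the text changed sign under the alternatives run, and 1 of the 2282 calls changed sign with the length and GC trends removed. Falls outnumbered rises with only the 6 wild-type libraries, with only the 12 CD11b-low libraries (1149 rises and 1151 falls), with voom (1088 and 1208), with the replicate block, without 4-week library 1 (596 and 597), without 12-week library 1 (1262 and 1266) and without both libraries that stood apart (860 and 944). The number of genes past the threshold in wild-type cells (2282) was 1123 with only the 6 wild-type libraries in the fit, 1364 with the transcript length trend removed, 1513 with the length and GC trends removed, and 1069 to 2528 with 1 library left out. The rises (1167) numbered 535 with only the 6 wild-type libraries and 542 to 1281 with 1 library left out. The falls (1115) numbered 588 with only the 6 wild-type libraries, 536 with the length trend removed, 597 with length and GC removed, and 527 to 1266 with 1 library left out. DESeq2 gave 2885 genes and voom 2296. Upper quartile scaling gave 2336, of which 67.4% rose, against 51.1% with TMM, and without 12-week library 2 61.9% of 1502 rose.

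The genotype difference (33 genes) numbered 150 with DESeq2, 7 with voom, 321 without a filter on low counts, 5 with a mean of at least 5 CPM, 9 without both libraries that stood apart, and 13 to 35 with 1 library left out. The knockout count (915) was 1685 with DESeq2, 1395 without a filter, 453 with at least 5 CPM, 1647 without both libraries, and 644 to 1979 with 1 wild-type library left out. The coefficient of variation at 12 weeks (0.437) was 0.217 to 0.513, and at 4 weeks (0.246) 0.176 to 0.293, with 1 library left out. The cause of these shifts was not tested.

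With the replicate number as a replicate block, 2377 genes passed (1146 rose and 1231 fell), and 66 for the genotype difference. Deviations of same-numbered libraries of the 2 ages correlated at 0.030, 0.076 and -0.037 across genes, and not every library correlated best with its own number. With 3 libraries per age these values cannot settle whether the numbers pair the pools. Genes near 1 CPM rest on few counts, and small changes in them were not detectable at this depth.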

Other observations

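Some genes varied more between pools of 1 age than between the ages, and they were picked after their values were seen. Plekhh2 stood at 18512, 26.8 and 6895 CPM at 4 weeks and 10154, 22.4 and 5885 CPM at 12 weeks, with library 2 far below its replicates at both ages. Cxcl2, a neutrophil attractant, stood at 1041, 1001 and 9.22 CPM at 4 weeks and 47.3, 47.3 and 1696 CPM at 12 weeks, so that the 4-week library with the lowest level and the 12-week library with the highest level were both numbered 3. Ddx3y, on the Y chromosome, stood at 41.4, 75.9 and 0.363 CPM at 4 weeks and 27.5, 36.5 and 45.6 CPM at 12 weeks, with 4-week library 3 far below the other 5. No gene of the sex marker list passed the test between the ages.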
